A study of Mus musculus with 2 samples.

Results

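The genes described here are 40 genes of glucose uptake, glycolysis, lactate handling, pyruvate entry into mitochondria and the pentose phosphate pathway, chosen by gene symbol from the 23284 genes of a transcriptome comparison of cardiac macrophages. All 40 had a row in the table, and Pkm, the muscle-type pyruvate kinase gene, was matched under its older symbol Pkm2. The RNA came from macrophages of infarcted C57BL/6 mouse hearts, collected 3 days after the left anterior descending coronary artery was tied off, as 1 library from Ly6Chi macrophages and 1 from Ly6Clo macrophages. Both populations carried the same injury at the same time and differed by label only in Ly6C, a glycoprotein of the cell surface that is abundant on classical monocytes and declines as they mature into macrophages. An uninjured heart was not analysed here, and the labels do not say how many animals gave each library.

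Each gene is described by a signed comparison statistic, a score without a stated unit or formula, and by its rank in size, both taken from the authors' deposited table. Per-library values were left out, because their column codes match no sample label, and it is not known which sign belongs to which population. Ly6c2, a gene of the Ly6C antigen itself, had -1.78 in the authors' deposited table, and negative genes are those on its side. A single library per population allows no error and no test, and the sizes below describe these libraries only. Levels, depth and fold changes were not analysed here. The size of the score may also depend on the level of a gene, which was not tested, so a size is not read as a fold change. Comparisons of size between genes, families and pathways below carry the same limit. In bulk RNA, fewer cells of a type and less RNA per cell cannot be told apart. The macrophage label could be checked only by side: of 9 macrophage markers 7 were negative, with a median of -0.23, and of 9 classical monocyte markers 8 were negative, with a median of -0.88, both computed from the authors' deposited table.

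Glycolysis splits glucose into pyruvate and yields ATP without oxygen. Hexokinase traps the sugar in the cell, phosphofructokinase sets the pace, and pyruvate is then either reduced to lactate and exported or oxidised in mitochondria, where the pyruvate dehydrogenase kinases act as a brake. The pentose phosphate pathway branches off after hexokinase and supplies NADPH and ribose phosphate. Inflammatory macrophages are known for high glycolytic flux driven by the hypoxia-inducible factor HIF-1, whereas repair-type macrophages are known for greater use of oxidative metabolism.

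The carbohydrate genes did not share a side. There were 20 positive and 20 negative genes in the authors' deposited table, with a median of 0.02, whereas 40.4% of all genes of the table were positive, 29.6% were negative and the rest stood at 0. The mean of the 40 was -0.000963, of the other sign, from the authors' deposited table. Among genes other than 0, 57.7% were positive, and their median was 0.01 from the authors' deposited table. At a size of 0.5 or more, 1 of the 40 was positive, which is 2.5% beside 3.77% of all genes, and 3 were negative, which is 7.5% beside 0.988% of all genes in the authors' deposited table. At a size of 0.25 or more, 5 were positive and 8 negative, beside 9.9% positive and 4.66% negative of all genes in the authors' deposited table. The median size of the statistic was 0.16 for the carbohydrate genes and 0.11 for all genes with a value other than 0, from the authors' deposited table. None reached a size of 1.

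**Figure D1:**
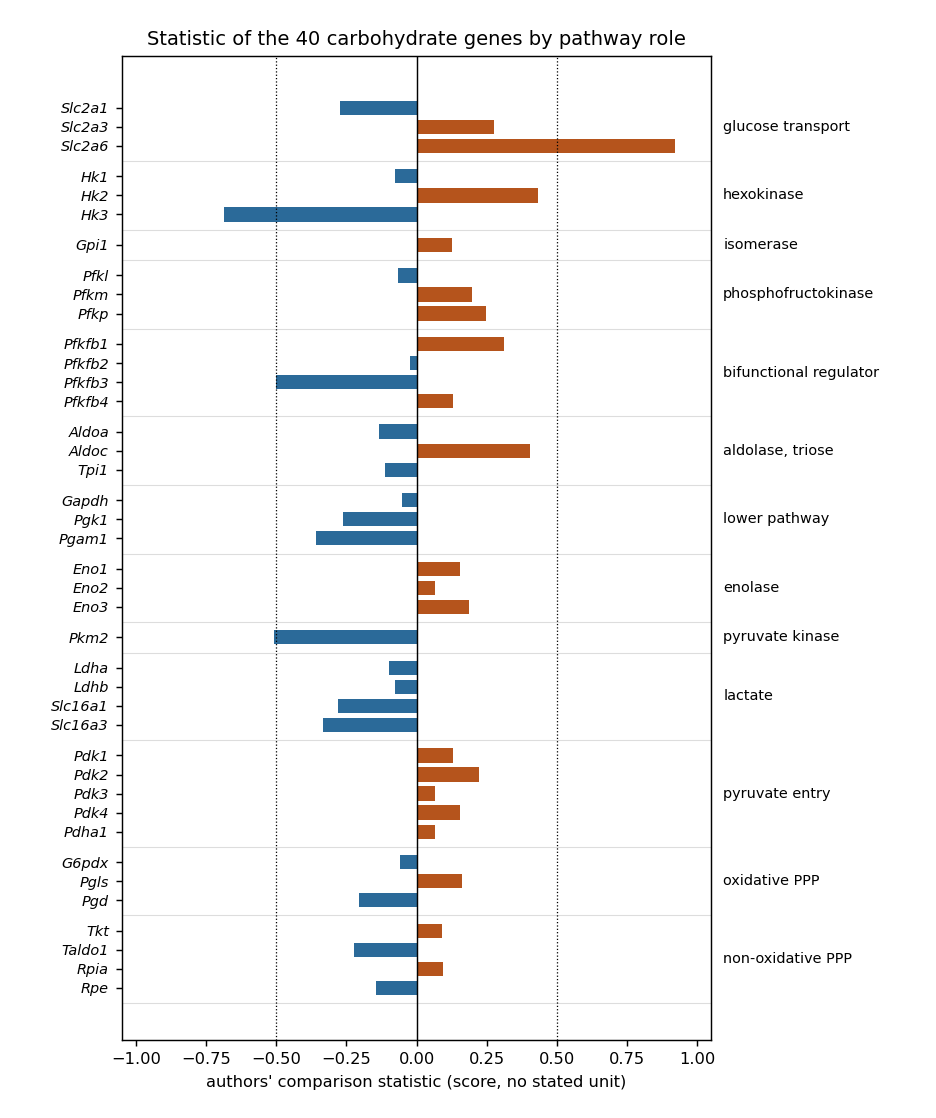
The authors' comparison statistic (horizontal axis, a score with no stated unit) for each of the 40 carbohydrate genes, as bars grouped by pathway role, with dotted lines at a size of 0.5. Slc2a6 is the only bar past the dotted line on the positive side, Hk3, Pkm2 and Pfkfb3 pass it on the negative side, and the lactate genes and the pyruvate entry genes each lie wholly on 1 side.

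Upstream sequences are shown for the 4 genes past a size of 0.5 and for Pgk1, Pgam1 and Slc16a1, negative genes of the lower pathway and of lactate transport. They come from RefSeq promoters of GRCm38.p6, the assembly of mm10, and run 5′ to 3′ on the strand of the gene, up to the annotated start of the gene. Capitals mark ACGTG or GCGTG on either strand, the letters of the core to which hypoxia-inducible factors bind. Pgk1, Pgam1 and Slc16a1 were picked for display and are not the next largest in size. Positive genes with such matches, among them Hk2, Pfkp and Pdk3, and negative genes with none, among them Aldoa and Tpi1, are not shown. The stretches are chr2:27028001-27028248 for Slc2a6, chr13:55021476-55021635 for Hk3 and chr2:11554072-11554179 for Pfkfb3, all on the minus strand. The others are chr9:59656326-59656575 for Pkm2, chrX:106186850-106187099 for Pgk1, chr19:41911621-41911870 for Pgam1 and chr3:104638414-104638663 for Slc16a1, all on the plus strand.
Slc2a6: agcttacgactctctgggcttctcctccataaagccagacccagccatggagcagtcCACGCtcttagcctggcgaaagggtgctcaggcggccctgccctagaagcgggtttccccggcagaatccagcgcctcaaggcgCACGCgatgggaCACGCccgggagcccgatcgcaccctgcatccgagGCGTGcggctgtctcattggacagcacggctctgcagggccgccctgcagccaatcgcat
Hk3: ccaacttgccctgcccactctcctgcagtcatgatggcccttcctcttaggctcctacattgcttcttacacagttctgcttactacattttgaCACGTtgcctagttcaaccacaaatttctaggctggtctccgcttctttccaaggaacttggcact
Pfkfb3: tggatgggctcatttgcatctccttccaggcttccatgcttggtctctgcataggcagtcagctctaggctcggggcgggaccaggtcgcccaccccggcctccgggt
Pkm2: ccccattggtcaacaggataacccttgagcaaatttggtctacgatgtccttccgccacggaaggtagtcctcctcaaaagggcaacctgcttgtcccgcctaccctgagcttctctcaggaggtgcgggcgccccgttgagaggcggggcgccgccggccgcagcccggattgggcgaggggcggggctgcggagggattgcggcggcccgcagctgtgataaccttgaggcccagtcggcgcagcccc
Pgk1: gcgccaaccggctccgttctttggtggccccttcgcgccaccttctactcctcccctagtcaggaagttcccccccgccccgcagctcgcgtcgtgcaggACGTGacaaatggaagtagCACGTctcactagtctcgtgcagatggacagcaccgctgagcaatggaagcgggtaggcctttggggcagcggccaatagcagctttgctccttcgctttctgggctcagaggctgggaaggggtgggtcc
Pgam1: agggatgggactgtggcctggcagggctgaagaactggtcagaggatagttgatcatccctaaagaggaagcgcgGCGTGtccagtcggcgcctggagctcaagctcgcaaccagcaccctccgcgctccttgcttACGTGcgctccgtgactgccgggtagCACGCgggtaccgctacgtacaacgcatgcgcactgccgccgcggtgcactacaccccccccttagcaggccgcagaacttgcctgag
Slc16a1: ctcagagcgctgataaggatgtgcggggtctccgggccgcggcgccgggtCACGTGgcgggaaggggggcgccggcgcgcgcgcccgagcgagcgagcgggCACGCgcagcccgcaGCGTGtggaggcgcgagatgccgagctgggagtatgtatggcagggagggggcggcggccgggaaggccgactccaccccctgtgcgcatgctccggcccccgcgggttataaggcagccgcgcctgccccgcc
Slc2a6 holds 4 copies of GCGTG and none of ACGTG, Hk3 holds 1 ACGTG and Pkm2 holds neither. Pgk1 holds 2 copies of ACGTG on opposite strands, Pgam1 holds 1 ACGTG and 2 GCGTG, and Slc16a1 holds 2 copies of each. In Slc16a1 the 2 copies of ACGTG overlap in the palindrome CACGTG, an E-box. For Pfkfb3 the only match lies 60 bases before the RefSeq promoter's start site, inside the annotated gene and outside the bases shown.

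Over the 250 bases before the start site, ACGTG was present in 12 of the 39 carbohydrate genes with a RefSeq promoter, or 30.8%, beside 16.5% of 27025 promoters of the same length. GCGTG was present in 23 of the 39, or 59.0%, beside 28.3% of those promoters, and the E-box CACGTG, whose matches also count as ACGTG, in 4, or 10.3%, beside 6.04%. These windows were also richer in G and C, with a median of 59.2% beside 52.0%. Among the 7439 promoters of at least 60% G and C the shares were 23.1% for ACGTG, 54.5% for GCGTG and 9.42% for CACGTG. The median G and C content of these 7439 was 66.4%, so they are richer than the carbohydrate genes and not matched to them. Among 15707 promoters of genes in the authors' comparison, matched by current symbol, the shares were 18.1%, 34.5% and 6.91%. The median G and C content of these 15707 was 55.6%. By side, ACGTG was in 8 of 20 negative genes and 4 of 19 positive genes, and GCGTG in 10 of the 20 negative and 13 of the 19 positive genes. Ldha, the lactate dehydrogenase gene, held 5 copies of ACGTG counted over both strands. It held 2 copies of the palindrome CACGTG, each of which counts as 2 overlapping copies of ACGTG, so the 5 are not separate sites. The matches describe letters in a window and carry no measure of factor binding.

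Sugar transporters stood on both sides. Slc2a6, at chromosome 2 from 27021363 to 27028000, encodes GLUT6, an intracellular member of the facilitative glucose transporter family. It had the largest size of the 40, a statistic of 0.92 that ranked 238 in the authors' deposited table, larger than 98.5% of genes other than 0. Slc2a3, which encodes the high-affinity transporter GLUT3 and lies on chromosome 6 from 122727809 to 122802363, had 0.27 in the authors' deposited table. Slc2a1, which encodes GLUT1, the main basal glucose transporter of many cells, lies on chromosome 4 from 119108745 to 119137330 and had -0.27 in the authors' deposited table. Slc2a1 and Slc2a3 thus stood at nearly equal distance from 0 on opposite sides. Of 10 other sugar transporters, 6 were positive, 3 negative and 1 at 0 in the authors' deposited table. The positive count includes Slc5a1 at only 2.42e-06, and all 10 were under 0.25 in size, in the authors' deposited table. The largest of these were Slc2a10 at 0.15 and the insulin-responsive transporter gene Slc2a4 at -0.15 in the authors' deposited table.

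The hexokinases spread nearly as widely as the glucose transporters. Hk3, the isozyme typical of myeloid cells, at chromosome 13 from 55005985 to 55021475, had -0.69, ranked 536 of all genes in the authors' deposited table. Hk2, the inducible isozyme that binds to mitochondria, at chromosome 6 from 82725025 to 82774454, had 0.43, ranked 1470 of all genes in the authors' deposited table. Hk1, the widely expressed isozyme, had -0.08 in the authors' deposited table. Hk2 and Hk3 therefore lay 1.12 apart on the authors' scale, from the authors' deposited table, although they catalyse the same reaction and share 63.5% of aligned coding bases. Gpi1, which converts the glucose phosphate made by hexokinase into the fructose form, had 0.13 in the authors' deposited table.

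At the pace-setting step, the bifunctional regulators differed more than phosphofructokinase itself. The liver-type gene Pfkl had -0.07, the muscle-type gene Pfkm 0.20 and the platelet-type gene Pfkp 0.25 in the authors' deposited table. The regulators make and degrade the small sugar phosphate that activates phosphofructokinase. Pfkfb3, the isoform with the strongest kinase activity, at chromosome 2 from 11471430 to 11554071, had -0.50, ranked 1103 of all genes in the authors' deposited table, just past the threshold. Pfkfb1, the isoform known from liver and muscle, had 0.31, Pfkfb4, known from testis, 0.13, and Pfkfb2, known from heart, -0.02 in the authors' deposited table. Pfkfb3 alone of these 4 reached a size of 0.5.

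Most of the lower pathway lay on the negative side, with Aldoc and the enolases as exceptions. Aldoa, the widely expressed aldolase, had -0.13, and Tpi1, triose phosphate isomerase, -0.11 in the authors' deposited table. Aldoc, the brain-type aldolase, had 0.40, ranked 1631 of all genes in the authors' deposited table. Gapdh, which makes the NADH of glycolysis, had -0.05, Pgk1, phosphoglycerate kinase, -0.26 and Pgam1, phosphoglycerate mutase, -0.36 in the authors' deposited table. Pkm2, at chromosome 9 from 59656576 to 59679372, encodes the pyruvate kinase of most tissues and had -0.51, ranked 1090 of all genes in the authors' deposited table. The table has 1 row for the gene, so its M1 and M2 splice forms are not separated.

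The enolases were all positive and small, with 0.15 for Eno1, 0.07 for the neuronal form Eno2 and 0.19 for the muscle form Eno3 in the authors' deposited table. Eno1 is the widely expressed enolase, yet its statistic was identical to that of 17 other genes in the authors' deposited table, among them Pax3, Cd27, Treh and Pdk4. Gm5506, an older symbol of the retrogene Eno1b, shares 80.7% of the coding stretches of Eno1 and had 0.13 in the authors' deposited table. The value of Eno1 is therefore uncertain, and the part of shared reads in it was not tested.

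The 4 genes of lactate formation and transport among the 40 lay on the negative side. Ldha, the isozyme that favours lactate formation, had -0.10, and Ldhb, which favours its oxidation, -0.08 in the authors' deposited table. Slc16a3, which encodes the lactate exporter MCT4, at chromosome 11 from 120948484 to 120959000, had -0.33 in the authors' deposited table. Slc16a1, which encodes MCT1 and carries lactate in either direction, at chromosome 3 from 104638664 to 104658462, had -0.28 in the authors' deposited table. None of the 4 reached 0.5 in size, and their median was -0.19 from the authors' deposited table.

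The pyruvate dehydrogenase kinase genes and Pdha1 had small positive values. The carriers that bring pyruvate into mitochondria were negative, as were most other subunit genes of the pyruvate dehydrogenase complex. Pdk1, a HIF-1 target, had 0.13, Pdk2 0.22, Pdk3 0.07 and Pdk4, a target of fatty acid signals, 0.15 in the authors' deposited table. These kinases inhibit the pyruvate dehydrogenase complex, whose catalytic subunit gene Pdha1 had 0.07 in the authors' deposited table. None of the 5 reached 0.25 in size, and their median was 0.13 from the authors' deposited table. Among 11 other genes of pyruvate transport and oxidation, 4 were positive, 6 negative and 1 at 0 in the authors' deposited table. Of the other subunit genes of the complex, Pdhx had -0.15, Pdhb -0.08, Dlat -0.07, Dld 0.03 and Pdha2 0 in the authors' deposited table. The mitochondrial pyruvate carrier genes Mpc1 and Mpc2 are listed as Brp44l and Brp44, and in the authors' deposited table Mpc1 had -0.21 and Mpc2 -0.15. The phosphatase genes that release the brake had the largest sizes among the 11, with -0.45 for Pdp1 and 0.23 for Pdp2 in the authors' deposited table.

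The pentose phosphate genes had no value of 0.25 or more in size. In the oxidative branch G6pdx, the NADPH-forming entry enzyme, had -0.06, Pgls, the lactonase, 0.16 and Pgd, the second NADPH-forming enzyme, -0.20 in the authors' deposited table. In the branch that interconverts sugars, Taldo1, transaldolase, had -0.22, Rpe, an epimerase, -0.15, Rpia, an isomerase, 0.09 and Tkt, transketolase, 0.09 in the authors' deposited table. Their median was -0.06, or -0.18 over those of size 0.1 or more, with 3 positive and 4 negative, from the authors' deposited table. Of 12 other genes of this pathway and of ribose phosphate use, 8 were positive, 2 negative and 2 at 0, led by Prps2, a phosphoribosyl pyrophosphate synthetase, at 0.35 and the sedoheptulokinase gene Shpk at 0.20 in the authors' deposited table.

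Within families of related enzymes, the genes fell into those that parted and those that stayed close. Of the 27 pairs within 9 families, 11 had opposite signs and 16 the same sign, and the median distance between the members of a pair was 0.18, from the authors' deposited table. The glucose transporters spanned 1.19, the hexokinases 1.12, the bifunctional regulators 0.81 and the aldolases 0.54, each across 0, from the authors' deposited table. The phosphofructokinases also crossed 0 and spanned 0.31, from the authors' deposited table. By contrast, the pyruvate dehydrogenase kinases spanned 0.16, the enolases 0.12, the monocarboxylate transporters 0.05 and the lactate dehydrogenases 0.02, without crossing 0, from the authors' deposited table. These spans cover only the family members among the 40 genes. Pdk4 and Eno1, among the kinases and the enolases, had an identical statistic, shared by 18 genes in the authors' deposited table. Ldhc, the testis-type lactate dehydrogenase gene outside the 40, had 0.03 in the authors' deposited table, where Ldha and Ldhb were negative. Slc2a13 and Prkaa2 had the identical value in the authors' deposited table, so no side is read for Ldhc. Aligned coding sequences were 50.7% to 77.4% identical within pairs. The enolases were the closest in sequence, at 75.3% to 77.4%, while the monocarboxylate transporters shared 53.8% and the hexokinases 60.7% to 69.5%.

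**Figure D2:**
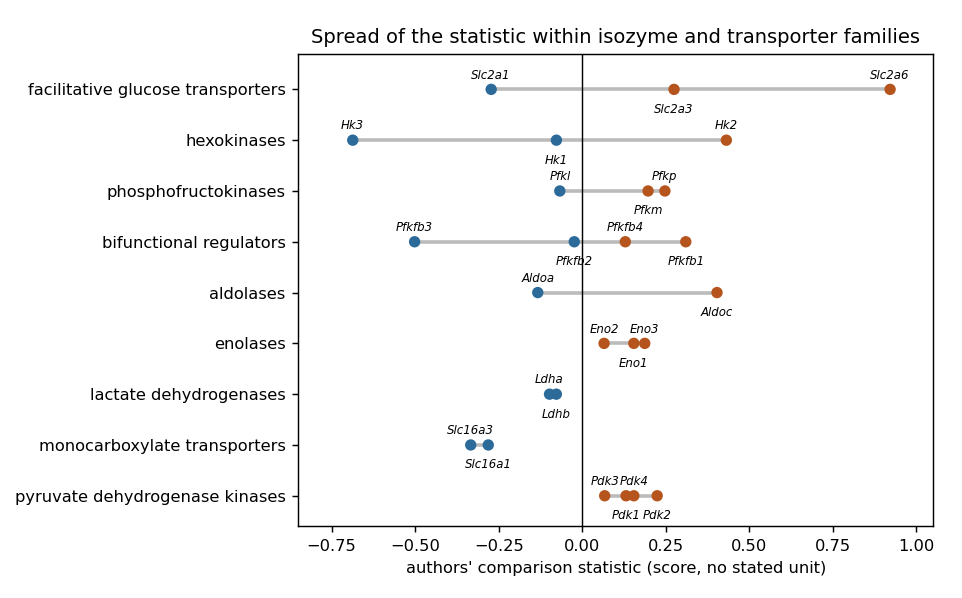
The authors' statistic (horizontal axis, a score with no stated unit) of each gene in 9 families of isozymes or transporters, as points joined by a grey line from lowest to highest. The glucose transporters, hexokinases, phosphofructokinases, bifunctional regulators and aldolases cross 0, and the plotted genes of the other families stay on 1 side.

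Several of these genes have close copies elsewhere in the genome, and reads from such copies may be split or lost in counting. For each gene, the longest coding sequence in GENCODE M21 was cut into every stretch of 50 bases, and the share also present in transcripts of other genes was counted. The share was 0 for 26 of the 40 genes and at least 50% for 6. It was 100% for Pgk1 and Pgam1, 94.2% for Gapdh, 83.3% for Eno1, 65.8% for Pfkfb2 and 52.9% for Pkm2. For Pgk1, Pgam1, Gapdh, Eno1 and Pkm2 the largest overlap was with a processed pseudogene, and for Pfkfb2 with Gm29427, a locus that overlaps it on chromosome 1. Gapdh matched transcripts of 217 other genes. Of these 6 genes 5 were negative and 1 positive, and of the other 34 genes 15 were negative and 19 positive, in the authors' deposited table. How the authors' counting treated reads with several matches is not given in the sources used here, and its part in these values was not tested. Slc2a6, Hk3, Pfkfb3, Hk2, Aldoc, Slc16a1 and Slc16a3 shared no such stretch.

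**Figure D3:**
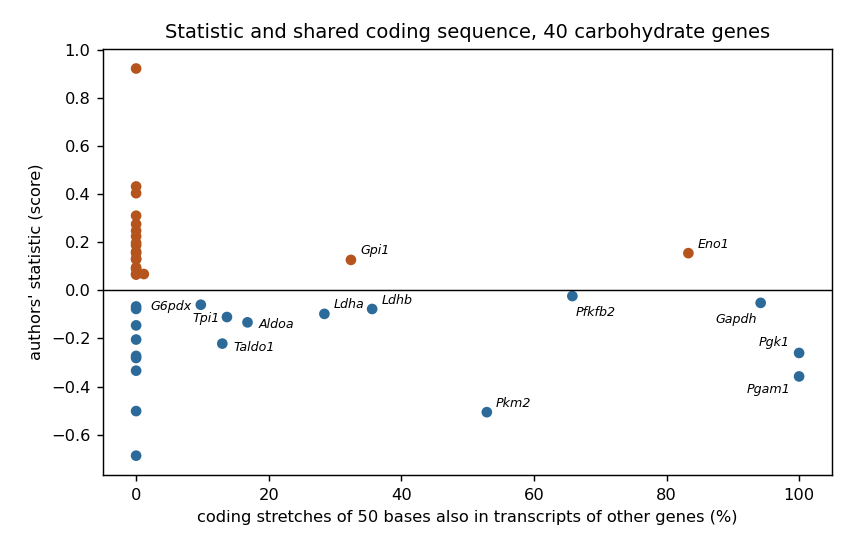
The share of coding stretches of 50 bases also found in transcripts of other genes (horizontal axis, percent) and the authors' statistic (vertical axis, a score), with 1 point for each of the 40 genes. At 50% or more lie Pgk1, Pgam1, Gapdh, Eno1, Pfkfb2 and Pkm2, of which only Eno1 is positive, while Slc2a6 and Hk3, the points furthest from 0, share nothing.

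The known regulators of the pathway also parted. Of 19 regulator genes, 11 were positive and 8 negative, and 3 reached a size of 0.5, from the authors' deposited table. Mlxipl, which encodes the glucose-sensing transcription factor ChREBP, had 0.89 and Myc, an activator of glycolytic genes in dividing cells, had 0.57 in the authors' deposited table. Hif1a, the oxygen-regulated subunit of HIF-1, had -0.52 and its partner gene Arnt had -0.21 in the authors' deposited table. The carbohydrate genes stood on both sides, with Hk3, Pkm2 and Pfkfb3 negative and Slc2a6 and Hk2 positive. A link of these values to Hif1a was not tested.

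Some neighbouring pathways had values closer to 0 than the carbohydrate genes, and others had similar sizes. Over values other than 0, the median size was 0.15 for the other genes of pyruvate transport and oxidation in the authors' deposited table. It was 0.14 for the other pentose phosphate and ribose phosphate genes and 0.09 for glycogen and gluconeogenesis, from the authors' deposited table. Of 22 genes of the TCA cycle and citrate use, 11 were positive and 11 negative, with a median size of 0.05 beside 0.16 for the carbohydrate genes, from the authors' deposited table. The largest were Fh1, the fumarase gene, at 0.39 and Irg1, the older symbol of the itaconate-forming enzyme gene, at 0.33 in the authors' deposited table. Of 15 genes of glycogen and gluconeogenesis, 7 were positive, 5 negative and 3 at 0, with Pck2, the mitochondrial phosphoenolpyruvate carboxykinase gene, at 0.47 and Ugp2, which makes UDP-glucose, at -0.34 in the authors' deposited table. The positive count includes Gys2 and Pck1 at only 2.42e-06 in the authors' deposited table. Of 14 other glycolytic isozymes, mostly known from liver, muscle or germ cells, 9 were positive, 2 negative and 3 at 0, none past 0.1 in size, in the authors' deposited table. Among them, Hkdc1, a hexokinase-like gene, had 0.10 and Ldhd, the D-lactate dehydrogenase gene, -0.08 in the authors' deposited table. The formula of the score is not stated, so no order is read from values this small.

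Dendritic cell markers and most fibroblast markers lay on the positive side, and the median of each list was above the value of every carbohydrate gene. All 11 dendritic cell markers were positive, 9 of them at 0.5 or more, with a median of 1.66, from the authors' deposited table. Of 8 fibroblast markers 7 stood at 0.5 or more, with a list median of 1.5, while Fn1 had -0.54, from the authors' deposited table. The defining dendritic genes Flt3 and Zbtb46 had 1.56 and 1.45 and the fibroblast collagen gene Col1a1 had 2.14 in the authors' deposited table. Of 7 neutrophil markers 5 were positive, with a median of 0.37, all 8 cardiomyocyte markers were positive, with a median of 0.18, and of 6 endothelial markers 4 were negative, with a median of -0.19, from the authors' deposited table. The part of these cells in the values of Slc2a6, Hk2 and Aldoc was not tested.

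**Figure D4:**
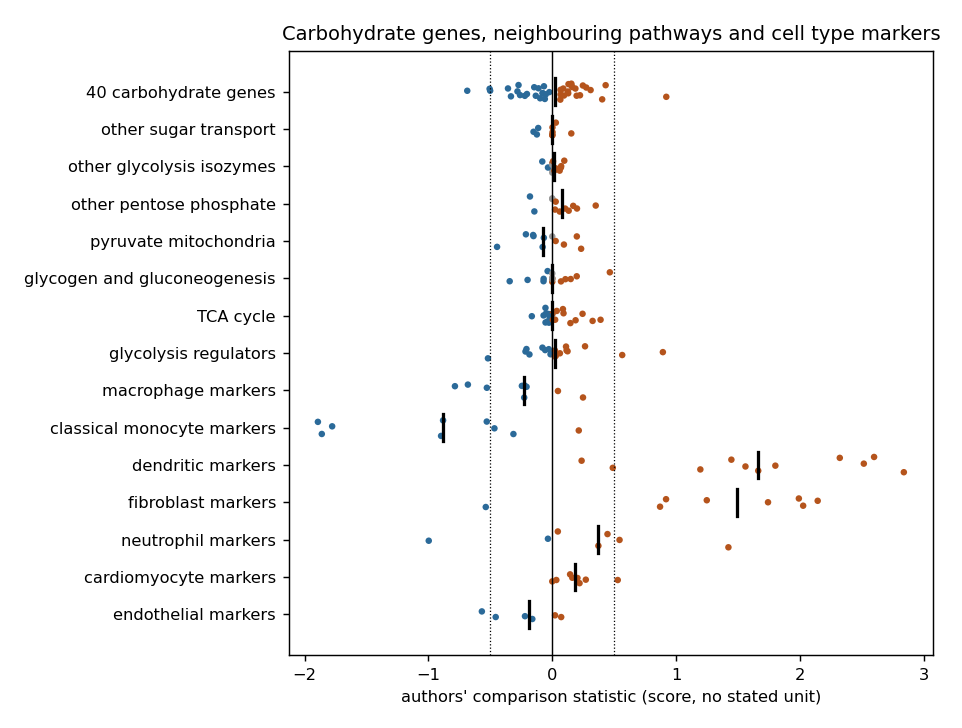
The authors' statistic (horizontal axis, a score with no stated unit) of the 40 carbohydrate genes, of genes of neighbouring pathways and of cell type markers, with 1 point per gene, a black line at the median of values other than 0 and dotted lines at a size of 0.5. The carbohydrate genes lie between -0.69 and 0.92 around a median of 0.02, while dendritic cell and fibroblast markers lie mostly past 0.5.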

How the data were processed

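RNA sequencing of 1 library of Ly6Chi and 1 library of Ly6Clo macrophages gave a single table. Per the submitters' processing notes, CASAVA 1.8.2, TopHat and mouse build mm10 were used. The sources used here do not name the counting program, the annotation or the strand handling. Per the file headers, the authors deposited a ranking and a signed statistic, a score whose unit and formula are not stated. The rank recomputed from the size of the score matched to within 1e-06 for 23284 of 23284 genes. A further 2 columns hold per-library values under codes that match no sample label and stayed unused, so no depth, level or fold was computed.

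The 40 genes and 14 further gene lists were chosen with earlier results of these data known. All 40 genes were named, and from each pathway list those of size 0.5 or more or the 2 largest. Ly6c2, Arnt, Mpc1, Mpc2, Ldhc, Gm5506, Gm29427, Pax3, Cd27, Treh and the markers Flt3, Zbtb46 and Col1a1 were named after their values were seen. So were Slc5a1, Gys2, Pck1, Slc2a13, Prkaa2 and the markers Fn1, Mmp8, Mmp9 and Myh7. No test was run. Coordinates and promoters came from RefSeq for GRCm38.p6, where 39 of the 40 genes had a promoter. Where several were listed, the one nearest the annotated gene start was used. For 34 of these 39, the last 20 bases stood in a GENCODE transcript of the gene. Coding sequences were aligned globally with Biopython 1.88. Steps were tested on simulated data. Computations ran in Python 3.11.15 with pandas 2.3.3 and NumPy 2.4.6, intervals came from SciPy 1.17.1 and plots from Matplotlib 3.10.9.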

Additional observations from a re-analysis of the deposited data

How the results depend on the processing

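No paired analysis was possible because the table holds no second library of either population, and for the same reason no library could be left out. Of 20 alternatives, 15 were planned and 5 were chosen after seeing the data. The counts past the threshold depended on it. At a size of 1 they were 0 positive and 0 negative genes, and at 0.25 they were 5 positive and 8 negative, against 1 and 3 at 0.5. The medians lie near 0 and moved with the setting. The median of all 40 genes, 0.02, became 0.13 with genes of size 0.1 or more and 0.07 without the genes that share 50% or more of their coding stretches, and the mean was -0.000963. The glycolysis median of -0.02 became 0.13 under each of those 2 restrictions. The pentose phosphate median of -0.06 became -0.18 with genes of size 0.1 or more. These moves stay inside binomial intervals of the medians, which are wide and treat genes as independent, so the intervals say nothing about stability. With stretches of 75 bases, 5 in place of 6 genes shared that much.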

Other observations

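Exact ties touched 3 of the 40 genes. The statistic of Eno1 and Pdk4 was shared by 18 genes in the authors' deposited table, and that of Pfkm by 2 genes. Among all genes with a size of 0.1 or more, 2216 of 8598, or 25.8%, shared their value with another gene in the authors' deposited table. The genes tied with Eno1 include the developmental transcription factor gene Pax3, the trehalase gene Treh and the lymphocyte receptor gene Cd27.

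On chromosome 6 of mm10, Eno2 runs from 124760053 to 124769673, Tpi1 from 124810586 to 124814158 and Gapdh from 125161852 to 125166467. Eno2 had 0.07, Tpi1 -0.11 and Gapdh -0.05 in the authors' deposited table.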
